A study of Mus musculus with 10 samples.

Results

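The genes described are 9 that encode mitochondrial enzymes through which pyruvate enters and passes round the tricarboxylic acid (TCA) cycle: *Pdha1*, *Pcx*, *Cs*, *Idh3a*, *Idh3b*, *Ogdh*, *Suclg1*, *Fh1* and *Mdh2*. They were chosen by name, and each matched a single gene among the 15126 genes listed. RNA-seq libraries of the livers of 5 AAV8-Control mice were analysed. These were male *db/db* mice, which lack a working leptin receptor and become obese and diabetic, taken at 10 weeks of age, 5 weeks after an adeno-associated virus of serotype 8 (AAV8) encoding eGFP was given by tail vein. No lean or uninjected group was analysed, and the promoter in the vector is not given in the sources used here. GEO's labels name primary hepatocytes and adenovirus as well as liver and AAV8, and the study's methods describe livers.

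Pyruvate has separate routes into the cycle. The pyruvate dehydrogenase complex turns it into acetyl-CoA for oxidation or lipid synthesis, and pyruvate carboxylase turns it into oxaloacetate, which refills the cycle and feeds gluconeogenesis. Citrate synthase joins acetyl-CoA to oxaloacetate, and the later enzymes return citrate to oxaloacetate while passing electrons to the respiratory chain. In liver the cycle also supplies citrate for lipogenesis and malate for glucose production, so its enzymes stand where feeding and fasting metabolism meet.

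Library totals implied by the deposited CPM values, reads scaled to a common library total, were 19499795 to 35498596 reads. The genes listed held 97.8% to 98.3% of these totals, and 100% of the values were whole reads within 0.01 of a read. Hepatocyte markers summed to 100833 to 136945 CPM over the 5 livers. Markers of other liver cells were present, at 134 to 270 CPM for Kupffer cells and macrophages, 135 to 284 CPM for sinusoidal endothelium, 252.1 to 341 CPM for stellate cells and 33.5 to 53.9 CPM for cholangiocytes. Red blood cell markers summed to 203 to 265 CPM, lymphocyte markers to 3.67 to 7.85 CPM, adipocyte markers to 1.31 to 5.03 CPM and neutrophil markers to 0.290 to 1.35 CPM. In whole liver, fewer cells of a type and less RNA per cell cannot be told apart.

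All 9 genes averaged more than 1 CPM, as did 11041 genes in all, and each had from 645 reads, in the lowest library of *Idh3a*, to 27519 reads, in the highest library of *Pcx*. Levels were compared between genes as CPM per kilobase of merged exons. *Pcx* stood highest, at 146 ± 19.0 CPM per kilobase (SD, n = 5). *Fh1* came next at 69.8 ± 2.65, then *Mdh2* at 66.2 ± 4.97 and *Idh3b* at 63.1 ± 2.98 CPM per kilobase. These 3 were not all separate from each other, since *Fh1* was above *Mdh2* in 4 of 5 livers, *Mdh2* was above *Idh3b* in 4 of 5, and the ranges of each of these pairs overlapped.

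From *Idh3b* down, each gene was above the next in 5 of 5 livers and the ranges did not overlap. *Suclg1* was at 54.8 ± 1.92, *Pdha1* at 43.8 ± 3.15, *Ogdh* at 36.3 ± 1.79 and *Cs* at 29.8 ± 4.39 CPM per kilobase (SD, n = 5). *Idh3a* was lowest at 6.78 ± 0.496 CPM per kilobase. The place of *Pdha1* is less certain, because reads it shares with other genes were not counted, and its separation from *Suclg1* may rest on that. The order depends on the length correction. In CPM, which is not corrected for length, *Suclg1* was above *Fh1* and *Idh3b*, and *Ogdh* above *Pdha1*, in 5 of 5 livers. The mean of *Cs*, 172 CPM, was also above that of *Pdha1*, 164 CPM. Among the genes averaging 1 CPM or more, 8 of the members stood between the percentiles of 89.6, for *Cs*, and 97.4, for *Pcx*, by level per kilobase, and *Idh3a* stood at the percentile of 67.8.

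**Figure D1:**
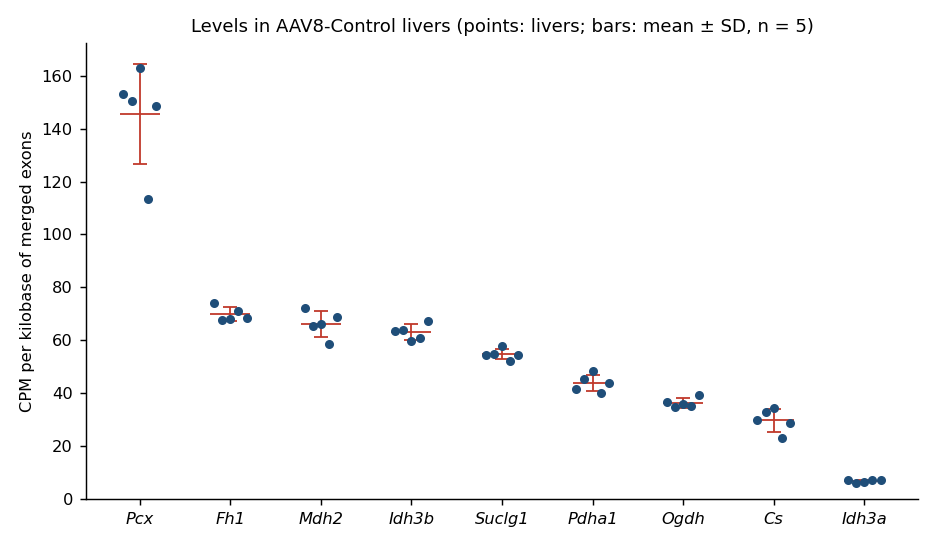
Level of each of the 9 genes in CPM per kilobase of merged exons (y axis, from 0) in each AAV8-Control liver (points), ordered by mean, with bars for the mean ± SD (n = 5). *Pcx* stands apart at 146 CPM per kilobase and *Idh3a* at 6.78, and the points of *Mdh2* overlap those of *Fh1* and those of *Idh3b*.

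The genes at the entry of pyruvate are *Pdha1* and *Pcx*. *Pdha1* encodes the catalytic E1 alpha subunit of pyruvate dehydrogenase, whose phosphorylation by the pyruvate dehydrogenase kinases switches the complex off (ENSMUSG00000031299, GRCm38, chromosome X, 160122209 to 160138413, minus strand). It was at 155, 169, 180.1, 150.1 and 164 CPM in livers 1 to 5, a mean of 164 ± 11.7 CPM (SD, n = 5), highest in liver 3 and lowest in liver 4. Of the 50-base words of its transcripts, 12.9% also occur in transcripts of *4930519F09Rik* or *Map3k15*, and exons of *Map3k15* overlap *Pdha1* on the opposite strand, so its level is uncertain: reads that matched more than 1 gene were not counted.

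*Pcx* encodes pyruvate carboxylase, the biotin enzyme that makes oxaloacetate for gluconeogenesis (ENSMUSG00000024892, chromosome 19, 4510472 to 4621752, plus strand). It was at 727, 715, 775, 538 and 706 CPM in livers 1 to 5, a mean of 692 ± 90.1 CPM (SD, n = 5). Liver 4 was below the others, at 75.3% of the median.

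The log2 ratio of *Pcx* to *Pdha1* CPM, which compares the mRNA of these genes and not the use of the routes, was 2.23, 2.08, 2.11, 1.84 and 2.11 in livers 1 to 5, a mean of 2.07 ± 0.14 (SD, n = 5), or 4.22 ± 0.397 *Pcx* reads per *Pdha1* read, a value that is not corrected for length. Per kilobase of merged exons the ratio was 3.32 ± 0.312 (SD, n = 5), and the uncertain count of *Pdha1* enters both. *Pcx* was the higher on either scale in every liver, and the ratio was lowest in liver 4.

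The enzymes from citrate synthase to 2-oxoglutarate dehydrogenase carry acetyl-CoA through the oxidative steps of the cycle. *Cs*, citrate synthase (ENSMUSG00000005683, chromosome 10, 128337734 to 128362479, plus strand), was at 173, 189.7, 198, 133 and 166 CPM in livers 1 to 5, a mean of 172 ± 25.4 CPM (SD, n = 5). It varied most of the 9 genes, from 77.0% of its median in liver 4 to 115% in liver 3. The paralog *Csl* shares 2.01% of its 50-base words.

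Isocitrate dehydrogenase 3, the NAD-linked enzyme of the cycle, is built of alpha, beta and gamma subunits, of which the alpha subunit is catalytic. *Idh3a*, the alpha subunit (ENSMUSG00000032279, chromosome 9, 54586334 to 54604661, plus strand), was at 36.5, 31.1, 32.3, 35.9 and 36.2 CPM in livers 1 to 5, a mean of 34.4 ± 2.51 CPM (SD, n = 5). *Idh3b*, the beta subunit (ENSMUSG00000027406, chromosome 2, 130279309 to 130284547, minus strand), was at 218, 218, 204, 209 and 231 CPM in livers 1 to 5, a mean of 216 ± 10.19 CPM (SD, n = 5). Livers 1, 4 and 5 were the higher ones for *Idh3a*, and liver 5 was the highest for *Idh3b*. Exons of *Nop56* overlap *Idh3b* on the opposite strand, though 0% of its 50-base words occur in transcripts of other genes. No source used here says that the libraries kept strand.

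The log2 ratio of *Idh3a* to *Idh3b* CPM was -2.58, -2.81, -2.66, -2.54 and -2.67 in livers 1 to 5, a mean of -2.65 ± 0.11 (SD, n = 5). On the linear scale there were 0.159 ± 0.0114 *Idh3a* reads per *Idh3b* read, not corrected for length. Per kilobase of merged exons the ratio was 0.108 ± 0.00771 (SD, n = 5), and *Idh3a* was the lower in every liver on either scale.

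*Ogdh* encodes the E1 subunit of the 2-oxoglutarate dehydrogenase complex, a calcium-responsive control point of the cycle (ENSMUSG00000020456, chromosome 11, 6291633 to 6356642, plus strand). It was at 201, 189.8, 195, 191 and 214 CPM in livers 1 to 5, a mean of 198 ± 9.78 CPM (SD, n = 5), and liver 5 was the highest.

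The enzymes of the later steps regenerate oxaloacetate from succinyl-CoA. *Suclg1* encodes the alpha subunit of succinyl-CoA ligase, shared by the ADP-forming and GDP-forming enzymes (ENSMUSG00000052738, chromosome 6, 73248382 to 73276911, plus strand). It was at 252.2, 253, 266, 241 and 251.9 CPM in livers 1 to 5, a mean of 253 ± 8.85 CPM (SD, n = 5), and it varied least of the 9 genes.

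*Fh1*, fumarase, hydrates fumarate to malate (ENSMUSG00000026526, chromosome 1, 175600374 to 175625635, minus strand). It was at 251, 229.9, 230.3, 241 and 232 CPM in livers 1 to 5, a mean of 237 ± 8.98 CPM (SD, n = 5). Livers 1 and 4 were the higher ones, so that liver 4 was not low for this gene. *Mdh2*, mitochondrial malate dehydrogenase, closes the cycle and serves the malate-aspartate shuttle (ENSMUSG00000019179, chromosome 5, 135778480 to 135790398, plus strand). It was at 257, 233, 235, 209 and 244 CPM in livers 1 to 5, a mean of 236 ± 17.7 CPM (SD, n = 5), with liver 4 the lowest.

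Summed over the 9 genes, livers 1 to 5 held 2269.9, 2229, 2317, 1948 and 2245 CPM. Liver 4 had the lowest sum and was the lowest for 5 members, *Pdha1*, *Pcx*, *Cs*, *Suclg1* and *Mdh2*, and liver 3 was the highest for 4, *Pdha1*, *Pcx*, *Cs* and *Suclg1*. The coefficient of variation was 14.8% for *Cs* and 13.0% for *Pcx*, and 3.50% to 7.51% for the other 7. Its median was 7.17% over the members and 10.6% over the genes averaging 1 CPM or more, in which *Cs* stood at the percentile of 70.0 and *Suclg1* at that of 3.62. The 8 mitochondrially encoded genes listed took 9.92% to 11.9% of the reads, and leaving them out of the totals moved no member's mean by more than 12.2%.

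**Figure D2:**
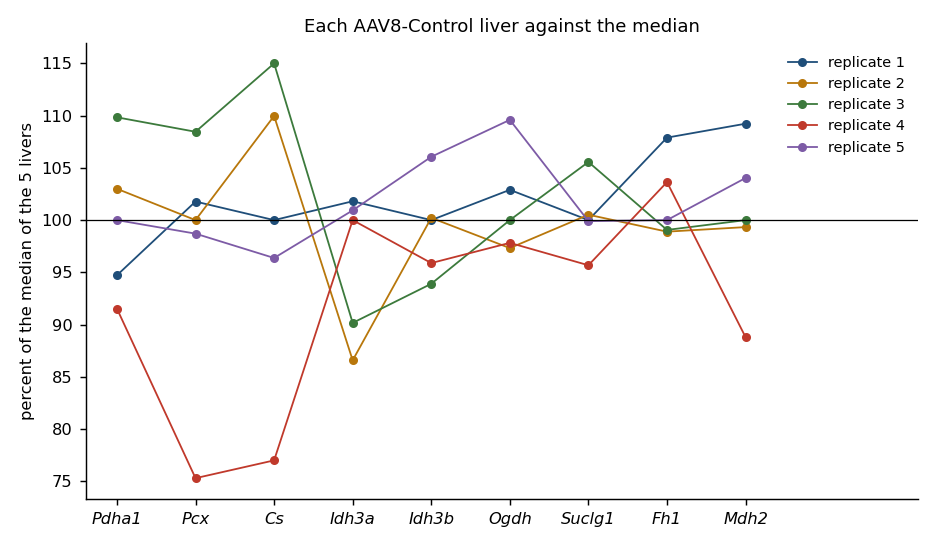
Level of each of the 9 genes in each AAV8-Control liver as a percent of the median of the 5 livers (y axis, not from 0), with a line for each liver. Liver 4 lies lowest for *Pcx* at 75.3% and *Cs* at 77.0%, and it lies above the median for *Fh1*.

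The promoters of the members were read for 3 short motifs of regulators of mitochondrial genes, on both strands, in the 300 bases from 250 before to 50 after each RefSeq start site (GRCm38.p6). Windows were found for 8 of the 9 genes, with none for *Idh3a*, and there were 14 windows because some genes have several start sites. *Ogdh* had the most windows, several of them overlapping, so more of its sequence was read than of any other member's. The shares that follow are per window and not per gene. The estrogen-related receptor (ERR) motif AAGGTCA occurs in 4.72% of all 32851 such promoters, the core NRF1 motif GCATGCG in 3.58% and the core ETS motif CCGGAAG, which GABP binds, in 8.86%. *Ogdh* held the ERR motif in 1 window and the NRF1 motif in 2 overlapping windows, *Idh3b* held the ETS motif in 1 window, and the windows of the other members held none of these letters. The sites are shown because they are the matches found among the members, each in 30 bases on the gene's strand with the match in capitals, at chr2:130284450-130284479 (minus strand), chr11:6292142-6292171 (plus strand) and chr11:6292530-6292559 (plus strand), where the NRF1 letters match on both strands and the matches overlap.
*Idh3b*, ETS motif: tccagctcccacgaccgcgctcgCTTCCGG
*Ogdh*, ERR motif: ttcgccgtgcccggacacggcgcTGACCTT
*Ogdh*, NRF1 motif: ggctaggtgttgtgCGCATGCGtaactcaa

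In the pyruvate dehydrogenase complex *Pdha1*, at 43.8 CPM per kilobase, had a higher mean than *Dld*, the E3 subunit, at 39.0 ± 3.01, and *Pdhb*, the E1 beta subunit, at 24.8 ± 2.64 CPM per kilobase (SD, n = 5). *Dlat*, the E2 subunit, was at 12.1 ± 2.31 and *Pdhx*, which binds the E3 subunit, at 9.33 ± 0.667 CPM per kilobase. The range of *Pdha1*, from 40.2 to 48.2, overlapped that of *Dld*, from 34.8 to 42.0, and lay above those of the other subunits.

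In isocitrate dehydrogenase 3 the order was *Idh3b*, then *Idh3g*, the gamma subunit, at 38.6 ± 2.61, then *Idh3a* at 6.78 ± 0.496 CPM per kilobase (SD, n = 5), and the ranges did not overlap. In the 2-oxoglutarate dehydrogenase complex *Ogdh*, at 36.3, *Dlst*, the E2 subunit, at 34.9 ± 2.66, and *Dld*, which both complexes share, at 39.0 CPM per kilobase had overlapping ranges. That overlap depends on the length correction. In CPM the ranges were separate, at 291 to 355 for *Dlst*, 189.8 to 214 for *Ogdh* and 128 to 155 for *Dld*. *Suclg1* was at 54.8 CPM per kilobase, above both of its beta partners, the GDP-forming *Suclg2* at 31.5 ± 1.07 and the ADP-forming *Sucla2* at 34.6 ± 1.85. Over the 8 partner subunits averaging 1 CPM or more, the median was 33.1 CPM per kilobase and the range 9.33 to 39.0.

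**Figure D3:**
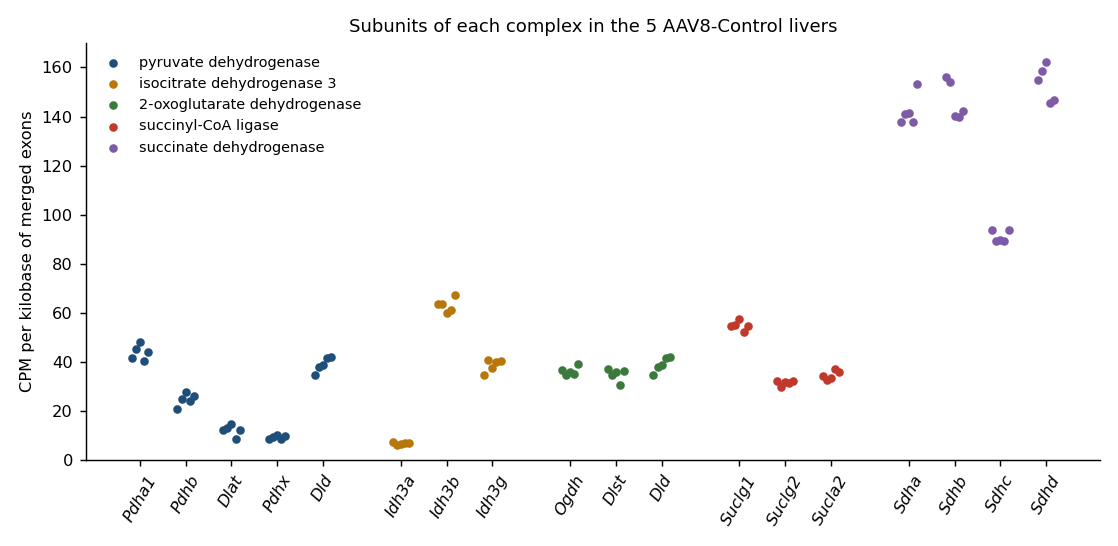
Level in CPM per kilobase of merged exons (y axis, from 0) of the subunits of 5 enzyme complexes in each AAV8-Control liver (points), coloured by complex, with *Dld* drawn in both complexes that hold it. *Idh3a* lies far below *Idh3b* and *Idh3g*, *Suclg1* lies above its partners, and the succinate dehydrogenase subunits stand highest.

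The rest of the pathway was described with 7 lists of 67 genes, of which 63 averaged 1 CPM or more. The remaining cycle enzymes, aconitase and the subunits of succinate dehydrogenase, had a median of 142 CPM per kilobase, above the mean of each member but *Pcx*. *Sdha*, the flavoprotein subunit, was at 142 ± 6.37 and *Sdhb*, the iron-sulfur subunit, at 146 ± 7.92 CPM per kilobase (SD, n = 5), near the 146 of *Pcx*. The 5 of 7 kinases and phosphatases of pyruvate dehydrogenase that averaged 1 CPM or more had a median of 5.79 CPM per kilobase. Among them *Pdk2* was at 62.2 ± 8.13 and *Pdk1* at 25.2 ± 5.10 CPM per kilobase (SD, n = 5), both kinases that switch off the product of *Pdha1*.

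The 8 genes that supply pyruvate or carry it into mitochondria had a median of 74.3 CPM per kilobase. *Gpt2*, which converts alanine to pyruvate in mitochondria, was at 147 ± 21.5 and *Ldha*, lactate dehydrogenase A, at 194 ± 20.6 CPM per kilobase (SD, n = 5). Of 17 genes of cytosolic and NADP-linked counterparts, entry and exit, the 16 that averaged 1 CPM or more had a median of 106 CPM per kilobase, with *Pck1*, which takes the oxaloacetate made by pyruvate carboxylase towards glucose, at 576 ± 165, and *Glud1*, which turns glutamate into 2-oxoglutarate, at 194 ± 13.1 CPM per kilobase. The 11 genes for cofactors and assembly had a median of 3.55 CPM per kilobase, with *Glrx5*, an iron-sulfur cluster protein, at 25.8 ± 2.78 and *Btd*, biotinidase, which recycles the cofactor of pyruvate carboxylase, at 31.2 ± 2.08 CPM per kilobase. The 10 regulators had a median of 2.95 CPM per kilobase, with *Sirt3*, the mitochondrial deacetylase, at 12.9 ± 0.591 and *Tfam*, which drives transcription of the mitochondrial genome, at 9.25 ± 0.584 CPM per kilobase.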

How the data were processed

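Poly-A RNA from livers was sequenced as single reads of 50 bases. The authors aligned reads with STAR 2.0.4b to Ensembl release 76 (GRCm38.p2), counted uniquely aligned unambiguous reads with featureCounts 1.4.5 and deposited CPM. How CPM were made is not given in the sources used here. Of 15236 lines, 110 were repeats, which left 15126 genes. Reads were recovered from the CPM steps, and 100% of values in each library were whole within 0.01. Totals implied by those steps were 19499795 to 35498596 reads, and 1 read was worth 0.0282 to 0.0513 CPM.

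The 5 AAV8-Control livers were analysed, and some items, among them the comparison between groups, are not reported here. The tests planned for that comparison were therefore not used, and no p-value is given. Values are means ± SD over livers, computed with pandas 2.3.3, and orders between genes are counts of livers and overlaps of ranges. Nothing in the labels says more of how the livers were sampled. Exon lengths, positions and shared 50-base words came from GENCODE M21 (GRCm38).

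All members were named, with the 2 genes of highest CPM in each list. *Pdhb*, *Dlat*, *Pdhx*, *Dld*, *Idh3g* and *Sucla2* were named after their values were seen, as partners in the members' complexes. The members and lists were chosen with earlier results of these data known.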

Additional observations from a re-analysis of the deposited data

How the results depend on the processing

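Of 75 recomputed values, 68 stayed within 1 SD of the value given. That count is not a measure of robustness, because most of the values came from leaving out each liver in turn. Leaving out a single liver cannot, by arithmetic, move a mean over the livers by as much as 1 SD. Median-of-ratios size factors on recovered reads moved no member's mean by more than 1 SD. For the ratios, a pseudocount of 1 moved neither by more than 1 SD. Leaving the 8 listed mitochondrially encoded genes out of the totals raises every level by construction. Means were then 184 CPM for *Pdha1*, 38.6 for *Idh3a*, 242 for *Idh3b* and 222 for *Ogdh*. They were 284 CPM for *Suclg1*, 266 for *Fh1* and 264 for *Mdh2*, and no member's mean moved by more than 12.2%. Both scalings were chosen after seeing the data. The alternatives planned for a comparison between groups were not run. No paired analysis was possible because no comparison between groups is reported.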
